A study of Mus musculus with 21 samples.

Results

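Integrins and laminins that join the basal layer of the epidermis to its basement membrane were followed through 3 mouse models of basal cell carcinoma, a skin tumour driven by Hedgehog signalling. The genes are Itga6, Itgb4, Itga3 and Itgb1 for integrin subunits, Lama3, Lamb3, Lama5 and Lamb1 for laminin chains, and Dst for a plaque protein of the hemidesmosome. They were taken by name from the deposited count table, where all 9 were found among 23713 genes, and all 9 passed the filter on low counts in every comparison. RNA was sequenced in bulk from keratinocytes of mouse tail epidermis. Each of the models SmoM2, Gnas-eKO and PKI has 3 control libraries (Con) and 4 tumour libraries (BCC), 21 in all. Per the labels, SmoM2 cells were taken 29 days after tumour induction, Gnas-eKO cells after 42 days and PKI cells after 57 days, and each model formed 1 batch of its own, so model, batch and day cannot be told apart here. The labels give no construct, driving promoter, strain, age or genotype of the Con mice, and they do not say whether each library is a separate mouse. In the file headers each of the 21 libraries has a code of its own, which may name the animal but is not explained there, so p-values measure the spread between these libraries. The first letters of these codes are the same in Gnas-eKO and in SmoM2 Con but differ in SmoM2 BCC. Within SmoM2, what these letters mark therefore cannot be told apart from BCC against Con.

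Hemidesmosomes anchor basal keratinocytes to the basement membrane. Their receptor is the integrin made of the subunits encoded by Itga6 and Itgb4, which binds laminin outside the cell and, through Dst and plectin, keratin filaments inside it. The laminin it binds in skin holds the Lama3 and Lamb3 chains, while trimers with the Lama5 chain, joined to Lamb1 or Lamb2 and Lamc1, are the other main laminins of the epidermal basement membrane. The integrin made of the Itga3 and Itgb1 products binds the same laminins at focal contacts, which connect to actin. SmoM2 is an activated Smoothened, which switches Hedgehog signalling on. The product of Gnas is the G protein subunit that raises cAMP, and the letters PKI usually stand for a peptide that blocks protein kinase A.

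Library totals ran from 16645858 to 22251132 counts. Gnas, the gene that the name Gnas-eKO refers to, stood at 172 to 178 CPM (counts scaled to a common library size, after TMM) in the Con libraries of that model and at 51.1 to 115 CPM in its BCC libraries. Smo was at 93.7 to 111 CPM in SmoM2 Con and at 283 to 312 CPM in SmoM2 BCC. A smaller rise of Smo was also seen in Gnas-eKO (106 to 113 CPM in Con, 150 to 234 CPM in BCC). In PKI it was at 98.1 to 113 CPM in Con and at 138 to 161 CPM in BCC. Pkia did not rise in PKI BCC (2.11 to 3.74 CPM, against 3.73 to 4.99 CPM in Con), and the labels do not say which sequence the PKI model expresses. Gli1, a target gene of the Hedgehog pathway, was at 66.1 CPM or more in 11 of the 12 BCC libraries and at 16.6 CPM or less in every Con library. The exception was the library labelled Gnas-eKO BCC 2, with 9.65 CPM. Basal keratinocyte markers were high in every library, with Krt5 at 7634 to 17853 CPM and Krt14 at 3859 to 15209.7 CPM.

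Within SmoM2, 3 of the 9 genes rose in BCC (Lama5, Lamb3 and Lamb1) and 2 fell (Itga6 and Itgb4), at an adjusted p under 0.05 in edgeR's quasi-likelihood test. Over all genes tested in SmoM2, 29.7% were called, 16.2% higher and 13.5% lower. Within PKI, 1 of the 9 rose (Lamb1) and 4 fell (Dst, Itgb4, Lamb3 and Itga3), where 34.5% of all genes tested were called, 18.7% higher and 15.8% lower. Within Gnas-eKO, 0 of the 9 were called by edgeR, where 1.63% of all genes tested were called. That share moved when 1 library was left out. From 267 genes with all libraries, edgeR's calls in Gnas-eKO went to 0 without Con 1 or without Con 2 and to 4 without Con 3. They were 291 without BCC 3, 38 without BCC 1, 59 without BCC 4 and 1910 without BCC 2. These fits cannot separate the weight of a single library from the smaller number of libraries. Of the 9 genes, 2 (Lama5 and Itga3) had an unadjusted p under 0.05, DESeq2 called 1 and limma on the authors' normalized values called 0. The 9 genes had a median log2 fold change of 0.032, 0.0073 and -0.51 for SmoM2, Gnas-eKO and PKI, beside 0.00054, 0.020 and -0.0012 over all genes tested. In bulk samples, fewer cells of a type and less RNA per cell cannot be told apart.

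**Figure D1:**
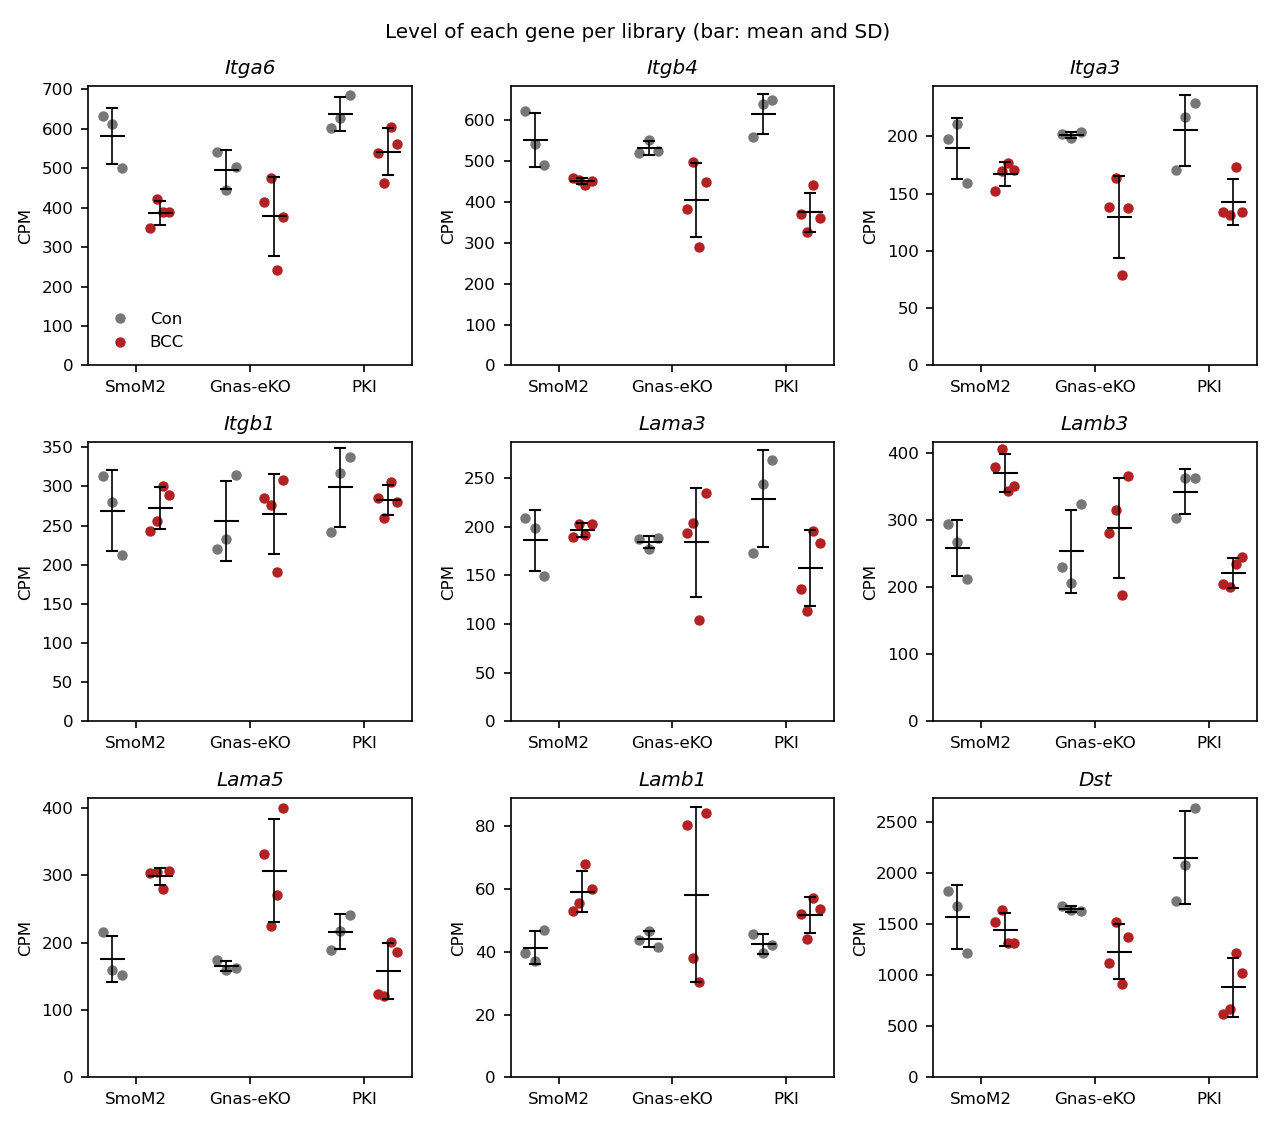
Level of each gene in every library, in CPM on the vertical axis, with Con in grey and BCC in red for the models SmoM2, Gnas-eKO and PKI; horizontal bars are means and whiskers are SD (3 Con and 4 BCC libraries a model). In SmoM2 the 4 BCC libraries lie above all Con libraries for Lama5, Lamb1 and Lamb3 and below them for Itga6 and Itgb4, while in PKI they lie below for Itgb4, Lamb3 and Dst.

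Levels between genes were compared per kilobase of exon (union of the annotated exons), over the 9 Con libraries. Itgb4 was the highest at 80.8 ± 8.10 CPM per kb (SD, n = 9), followed by Itgb1 at 67.2 ± 11.8 and Itga6 at 63.4 ± 8.66. Dst followed at 43.5 ± 9.45, Lamb3 at 43.1 ± 9.07 and Itga3 at 34.8 ± 3.78 CPM per kb. The ranges of neighbours in this order overlapped down to Itga3. Lama3 at 18.6 ± 3.42 and Lama5 at 16.3 ± 2.80 CPM per kb overlapped each other and lay below every Con value of Itga3. Lamb1 was the lowest of the 9 at 4.29 ± 0.352 CPM per kb, with no overlap with Lama5. This order depends on the length used, since the union of exons joins transcript forms. Per kilobase of the longest annotated coding transcript, a length chosen after the data were seen, Itga6 (4310 bases in place of 9025) came first at 133 ± 18.1 CPM per kb, just overlapping Itgb4 at 91.3 ± 9.15. On that length Dst (23279 in place of 41155 bases) stood at 76.9 ± 16.7, Itgb1 at 71.9 ± 12.6, Lamb3 at 58.6 ± 12.3 and Itga3 at 40.9 ± 4.44 CPM per kb. Lama3, Lama5 and Lamb1 remained the lowest, at 18.9 ± 3.48, 16.3 ± 2.80 and 7.35 ± 0.604 CPM per kb.

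Itga6 (chr2:71745616-71858416, build GRCm38, plus strand), the subunit that pairs with the Itgb4 product, was at 632, 611 and 502 CPM in the SmoM2 Con libraries and at 349, 422, 389 and 389 CPM in the SmoM2 BCC libraries. The groups did not overlap, as for 5 of the 9 genes in SmoM2 (38.8% of all genes tested), and the log2 fold change was -0.57 ± 0.09 (SE, with an adjusted p from edgeR of 0.00161), a level of 0.673 of Con. In PKI the values were 601, 627 and 687 CPM in Con and 539.8, 464, 604 and 561 CPM in BCC. These groups overlapped, and the change of -0.22 ± 0.10 did not pass (edgeR adjusted p = 0.109). In Gnas-eKO, Con ran from 444 to 542 CPM and BCC from 242 to 476 CPM, with the lowest value in BCC 3 (log2 fold change -0.39 ± 0.22, not called by edgeR).

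Itgb4 (chr11:115974709-116008412, plus strand) encodes the subunit whose long tail inside the cell binds plectin. In PKI it was at 559.6, 639.7 and 649 CPM in Con and at 371, 326, 441 and 361 CPM in BCC. The groups did not overlap, as for 3 of the 9 genes in PKI, all of them lower in BCC (43.2% of all genes tested did not overlap in PKI, and 20.8% were lower in all BCC libraries). The change on the log2 scale was -0.71 ± 0.11 (edgeR adjusted p = 0.00139), to 0.613 of the Con level. In SmoM2 the values were 623, 541 and 491 CPM in Con and 459.9, 454, 442 and 451 CPM in BCC. They did not overlap either, but the change was smaller, -0.27 ± 0.08 (edgeR adjusted p = 0.0304). That SmoM2 call held without Con 3 but was lost without any 1 of the other 6 libraries (edgeR adjusted p = 0.0635 to 0.0914). Among these 6, the change was -0.18 without Con 1 and -0.29 to -0.26 without any of the rest. The call was also lost when replicate number was a block (edgeR adjusted p = 0.0760) and in a joint fit of the 21 libraries (0.152). In Gnas-eKO, Con was at 521, 551 and 524 CPM and BCC at 383, 497, 289 and 449 CPM. There the groups did not overlap, as for 4 of the 9 genes in Gnas-eKO (19.7% of all genes tested), yet the change of -0.39 ± 0.19 did not pass. An annotated antisense RNA, B230344G16Rik, shares exon sequence with Itgb4. Whether the counting used the strand is not stated, so reads of the pair cannot be told apart.

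Dst (chr1:33908225-34308661, plus strand) encodes dystonin, whose epithelial form ties the integrin to keratin filaments. In PKI it was at 1732, 2084 and 2636 CPM in Con and at 625, 667, 1222 and 1019 CPM in BCC. All 4 BCC libraries lay below all Con libraries, BCC 1 and 2 furthest, with a log2 change of -1.27 ± 0.26 (edgeR adjusted p = 0.00834), to 0.414 of Con. In SmoM2 the values overlapped, with 1823, 1678 and 1216 CPM in Con and 1522, 1642, 1316 and 1315 CPM in BCC. The SmoM2 change was -0.10 ± 0.14 and did not pass. In Gnas-eKO the Con libraries were close together, at 1681, 1638 and 1628 CPM, and the BCC libraries at 1118, 1527, 918 and 1372 CPM lay below them (-0.41 ± 0.20, not called by edgeR). Antisense genes with exons over those of Dst (Gm26788 and A930005N03Rik) leave the same doubt as for Itgb4, and the gene counts do not separate its neuronal, muscle and epithelial forms.

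**Figure D2:**
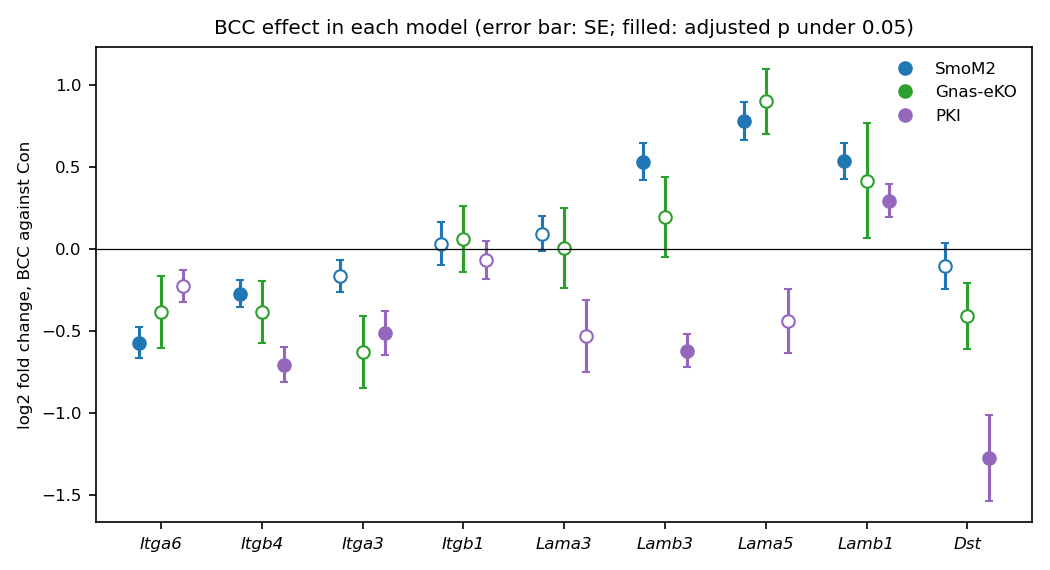
Log2 fold change of BCC against Con (vertical axis) for each gene (horizontal axis) in SmoM2 (blue), Gnas-eKO (green) and PKI (purple); whiskers are the SE and filled points have an edgeR adjusted p under 0.05. Lama5 and Lamb3 lie above 0 in SmoM2 and below 0 in PKI, and Dst has its lowest value, -1.27, in PKI.

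Itga3 (chr11:95044474-95076801, minus strand), the alpha subunit of the laminin receptor of focal contacts, was lower in PKI. It stood at 170.4, 217 and 229 CPM in Con and at 134, 131, 173 and 134 CPM in BCC, where BCC 3 overlapped the lowest Con library. The change on the log2 scale was -0.51 ± 0.13 (edgeR adjusted p = 0.0153). The call was lost without Con 2 (-0.47, edgeR adjusted p = 0.0623), without Con 3 (-0.42, 0.0651) and without both BCC 1 and 2 (-0.42, 0.113). In Gnas-eKO it was at 202, 199 and 204 CPM in Con and at 139, 163, 78.8 and 137 CPM in BCC. These groups did not overlap, and the change of -0.63 ± 0.22 was not called in the 7 libraries (edgeR adjusted p = 0.168) but was called in the joint fit of the 21 libraries (0.0166). In SmoM2, Con ran from 159.6 to 211 CPM and BCC from 152 to 177 CPM, a change of -0.16 ± 0.10 that passed only without Con 3 (-0.27, edgeR adjusted p = 0.0275).

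Itgb1 (chr8:128685654-128733200, plus strand), the beta subunit shared by most matrix-binding integrins, differed less than its spread. In SmoM2, Con ran from 212 to 314 CPM and BCC from 244 to 300.3 CPM. In Gnas-eKO the ranges were 220.3 to 314 CPM and 190.3 to 308 CPM, and in PKI 242 to 337 CPM and 260.0 to 306 CPM. The groups overlapped in each model, and the log2 fold changes were 0.03 ± 0.13, 0.06 ± 0.20 and -0.07 ± 0.12, none of them called by edgeR.

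Lamb3 (chr1:193207699-193343878, plus strand), the beta chain of the hemidesmosome laminin, moved in opposite directions in SmoM2 and PKI. In SmoM2 it was at 295, 268 and 213 CPM in Con and at 379, 406, 344 and 352 CPM in BCC. All BCC libraries were higher, with a log2 change of 0.53 ± 0.11 (edgeR adjusted p = 0.0056), which is 1.45 times the Con level. In PKI it was at 304, 363 and 363 CPM in Con and at 206, 201, 235 and 245 CPM in BCC. All BCC libraries were lower there, by a log2 change of -0.62 ± 0.10 (edgeR adjusted p = 0.00189), to 0.651 of Con. In Gnas-eKO, Con at 206 to 324 CPM and BCC at 189 to 367 CPM overlapped (0.19 ± 0.24). The annotated gene spans Hsd11b1 and G0s2 on the other strand, whose exons do not overlap its own.

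Lama3 (chr18:12333819-12583013, plus strand), the alpha chain of the same laminin, was at 149.7 to 209 CPM in SmoM2 Con and at 189 to 203 CPM in SmoM2 BCC. In Gnas-eKO, Con ran from 177 to 188 CPM and BCC from 104 to 234 CPM. In PKI it was at 173, 244 and 269 CPM in Con and at 136, 113, 195 and 183 CPM in BCC. The groups overlapped in every model, with log2 fold changes of 0.09 ± 0.11, 0.01 ± 0.24 and -0.53 ± 0.22. The PKI change was not called by edgeR (adjusted p = 0.103) but was called by DESeq2 (0.0312), when replicate number was a block (0.0244) and without Con 1 (-0.70, 0.0409). Without both BCC 1 and 2 it was -0.27 (edgeR adjusted p = 0.364). The exons of an antisense gene, Gm29200, overlap those of Lama3.

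Lama5 (chr2:180176373-180225859, minus strand), the alpha chain of the other main epidermal laminins, rose in SmoM2. It was at 215, 159 and 152 CPM in Con and at 303, 305, 280.1 and 307 CPM in BCC. The BCC libraries lay close together above all Con libraries, with a log2 change of 0.78 ± 0.11 (edgeR adjusted p = 0.000852), 1.72 times the Con level. In Gnas-eKO it was at 174, 159 and 163 CPM in Con and at 331, 225, 270.0 and 400.3 CPM in BCC. The BCC libraries were again all higher, and the change of 0.90 ± 0.20 did not pass with all libraries (edgeR adjusted p = 0.0630). It passed without BCC 2, the library with Gli1 near the Con level (1.03, edgeR adjusted p = 0.00857), in DESeq2 (0.000968) and in the joint fit (0.0039), settings in which 11.8%, 9.35% and 14.9% of all genes tested were called. In PKI it was at 189, 218 and 241 CPM in Con and at 124, 122, 200.5 and 186 CPM in BCC. There BCC 3 overlapped Con, and the change was -0.44 ± 0.19 (edgeR adjusted p = 0.118). That change passed without BCC 3 (-0.57, edgeR adjusted p = 0.0453) and when replicate number was a block (-0.56, 0.00589). It was -0.16 without both BCC 1 and 2 (edgeR adjusted p = 0.301).

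Lamb1 (chr12:31265234-31329644, plus strand), a beta chain that joins Lama5, was the gene of the 9 with the lowest counts. In SmoM2 it was at 39.6, 36.9 and 47.0 CPM in Con and at 52.9, 55.5, 68.0 and 60.0 CPM in BCC. All BCC libraries were higher, with a log2 change of 0.54 ± 0.11 (edgeR adjusted p = 0.00576), a call that the joint fit did not make (0.152). In Gnas-eKO, Con was at 43.6, 46.5 and 41.5 CPM and BCC at 80.1, 38.0, 30.2 and 84.1 CPM. The BCC libraries thus split, BCC 1 and 4 above and BCC 2 and 3 below every Con library, for a log2 change of 0.42 ± 0.35 that edgeR did not call. In PKI, Con was at 45.7, 39.6 and 42.0 CPM and BCC at 51.9, 43.9, 57.2 and 53.7 CPM. The PKI change of 0.30 ± 0.10 passed narrowly (edgeR adjusted p = 0.0491) and was lost without any 1 of 6 libraries (0.0612 to 0.167; it held without BCC 2), with DESeq2's size factors (0.0535), without the filter on low counts (0.0533), with the replicate block (0.0583) and in the joint fit (0.426).

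Whether the BCC effect differed from model to model was asked with an interaction term, from which an additive batch effect drops out. Within SmoM2 the first letters of the library codes differ between BCC and Con. An effect of what they mark would not drop out of differences that use SmoM2. Between PKI and SmoM2, 4 of the 9 genes differed, all with the lower effect in PKI, where 24.9% of all genes tested were called, and 12.3% of all genes with the lower effect in PKI. The difference was -1.15 ± 0.16 for Lamb3 (edgeR adjusted p = 0.000195), -1.22 ± 0.25 for Lama5 (0.00352), -1.17 ± 0.33 for Dst (0.0216) and -0.43 ± 0.14 for Itgb4 (0.0364). Lamb3 and Lama5 kept this call without any 1 of the 14 libraries. The Dst call was lost without SmoM2 Con 3 (-1.01, edgeR adjusted p = 0.0553) and without PKI Con 3 (-0.99, 0.0603). The Itgb4 call was lost without any 1 of 10 of the 14 libraries (edgeR adjusted p = 0.0540 to 0.0910) and held without SmoM2 Con 1, SmoM2 BCC 3, PKI Con 1 or PKI BCC 3. It was also lost with the replicate block (0.0525) and in the joint fit (0.147). Itga6 had the opposite sign, 0.35 ± 0.14 (edgeR adjusted p = 0.0859), and passed without SmoM2 Con 3 (0.45, 0.0305) or PKI BCC 2 (0.42, 0.0373). Itga3 passed only without PKI BCC 3 (-0.45, edgeR adjusted p = 0.0488) and Lama3 only without PKI Con 1 (-0.79, 0.0430).

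Between PKI and Gnas-eKO, 1 of the 9 genes differed, Lama5, at -1.34 ± 0.29 (edgeR adjusted p = 0.0127), where 9.06% of all genes tested were called and 4.57% had the lower effect in PKI. Dst (-0.87 ± 0.33, edgeR adjusted p = 0.121) did not pass. Lamb3 had the next lowest p after Lama5, at -0.81 ± 0.28 (edgeR adjusted p = 0.0835), and was called without Gnas-eKO Con 3 (-1.02, 0.0429) or BCC 3 (-0.97, 0.00962), by DESeq2 (0.0423) and in the joint fit (0.0398). Between Gnas-eKO and SmoM2, 0 of the 9 were called by edgeR, where 0.175% of all genes tested were called. There 0 of the 9 had an unadjusted p under 0.05, and neither DESeq2 nor limma called one. The lowest unadjusted p was that of Itga3, whose effect was -0.46 ± 0.26 in Gnas-eKO relative to SmoM2. With 1 library left out that effect ran from -0.59 to -0.28. The comparisons with PKI share its libraries, so they are not independent of each other.

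Lama5, Lamb3 and Dst are the genes whose effects lay furthest apart between PKI and SmoM2, and the 250 bases before their starts are shown for that reason. The sequences are RefSeq's on GRCm38.p6, 5′ to 3′ on the gene's strand, with matches to the motifs searched in capitals. For Dst both starts of the RefSeq table are shown, and for Lamb3 the first of 2. The GENCODE annotation places the starts of Lamb3 (193207699) and Dst (33908225) further upstream than any window shown, and 3 of its coding Dst transcripts, of 2639, 2987 and 5175 codons, begin near the later start shown.
Lama5 (chr2:180225860-180226109, minus strand): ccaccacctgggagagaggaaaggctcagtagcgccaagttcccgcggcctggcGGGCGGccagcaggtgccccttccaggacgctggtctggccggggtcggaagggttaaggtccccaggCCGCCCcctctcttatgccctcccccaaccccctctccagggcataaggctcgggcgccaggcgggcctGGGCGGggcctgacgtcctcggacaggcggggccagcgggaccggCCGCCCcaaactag
Lamb3 (chr1:193301744-193301993, plus strand): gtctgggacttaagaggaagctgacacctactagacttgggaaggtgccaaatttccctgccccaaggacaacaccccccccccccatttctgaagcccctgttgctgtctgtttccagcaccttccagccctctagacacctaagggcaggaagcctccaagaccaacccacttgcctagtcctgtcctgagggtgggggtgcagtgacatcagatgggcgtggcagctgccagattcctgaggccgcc
Dst, earlier start (chr1:34011345-34011594, plus strand): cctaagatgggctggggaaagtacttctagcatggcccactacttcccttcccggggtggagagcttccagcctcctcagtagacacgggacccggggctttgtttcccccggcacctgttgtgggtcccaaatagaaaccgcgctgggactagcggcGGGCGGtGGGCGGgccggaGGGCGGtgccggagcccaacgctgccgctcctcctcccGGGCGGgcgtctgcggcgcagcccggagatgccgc
Dst, later start (chr1:34160010-34160259, plus strand): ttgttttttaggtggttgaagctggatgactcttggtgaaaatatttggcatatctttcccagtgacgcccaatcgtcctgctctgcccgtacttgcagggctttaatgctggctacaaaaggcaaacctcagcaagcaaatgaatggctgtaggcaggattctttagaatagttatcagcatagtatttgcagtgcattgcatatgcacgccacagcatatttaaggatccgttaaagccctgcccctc
The window of Lama5 has a GC content of 72.4%, that of Lamb3 58.8%, that of the earlier Dst start 68.8% and that of the later Dst start 45.2%. Both strands were searched for a GLI motif (GACCACCCA, in 0.225% of 32851 promoter windows of this length), an AP-1 motif (TGANTCA, 6.75%), an SP/KLF box (GGGCGG, 32.7%) and a TEAD motif (GGAATG, 12.6%). Lama5 held the SP/KLF box 4 times, 196, 128, 59 and 14 bases before the start, and none of the other motifs. The earlier start of Dst also held it 4 times, 92, 85, 73 and 35 bases before the start, and none of the others. The later Dst window and the Lamb3 window shown held none of the 4 motifs as spelled, while the window of the second Lamb3 start, not shown, had a GC content of 61.2% and held the TEAD motif 167 bases before the start. The Dst windows shown thus differed from each other in these features, and the counts do not say which start the reads came from. A match is a run of letters only and does not show binding.

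Gene length moved with part of these results. The measure was the median log2 deviation from the Con mean of the same model, in 1436 genes longer than 8000 bases minus 454 genes shorter than 1500 bases. Lengths were those of the union of annotated exons, and only genes with a mean log2 CPM above 5 were used. The measure stayed within -0.043 and 0.033 in the 9 Con libraries. It was -0.36 in PKI BCC 1 and -0.39 in PKI BCC 2, but 0.028 and 0.0037 in PKI BCC 3 and 4. In Gnas-eKO it was -0.64 in BCC 3 and 0.40, 0.16 and 0.18 in BCC 1, 2 and 4. In SmoM2 BCC it was 0.053, 0.15, 0.064 and 0.045, each above the Con range. Genes with a long exon union were thus low in those PKI libraries in which Dst, Lama5, Lama3 and Lamb3 were lowest. They were also low in the Gnas-eKO BCC library in which 8 of the 9 genes, all but Lama5, were lowest. The part of length in these values was not tested beyond the fits that follow. With gene length as an offset in the edgeR fit, Dst still fell in PKI (-1.06, adjusted p = 0.000628) and 5 of the 9 genes were called there, with 36.3% of all genes. In SmoM2 the length offset left the rises of Lama5 (0.75, edgeR adjusted p = 0.000798), Lamb3 (0.50, 0.00635) and Lamb1 (0.50, 0.00966) called. Without both PKI BCC 1 and 2, 4 of the 9 were called, with 26.5% of all genes and Dst at -0.94 (edgeR adjusted p = 0.0183). The difference between PKI and SmoM2 was still called for Lama5 (-0.93, edgeR adjusted p = 0.0042) and Lamb3 (-1.03, 0.00137), was gained for Itga6 (0.46, edgeR adjusted p = 0.0355) and was lost for Dst (-0.82, 0.0505) and Itgb4 (-0.33, 0.125). With the length offset Itga6 was gained as well (0.46, edgeR adjusted p = 0.0119) and Itgb4 lost (-0.34, 0.0571). Lama5 between PKI and Gnas-eKO lost its call without both libraries (-1.05, edgeR adjusted p = 0.0597). These alternatives were chosen after the length measure had been seen.

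**Figure D3:**
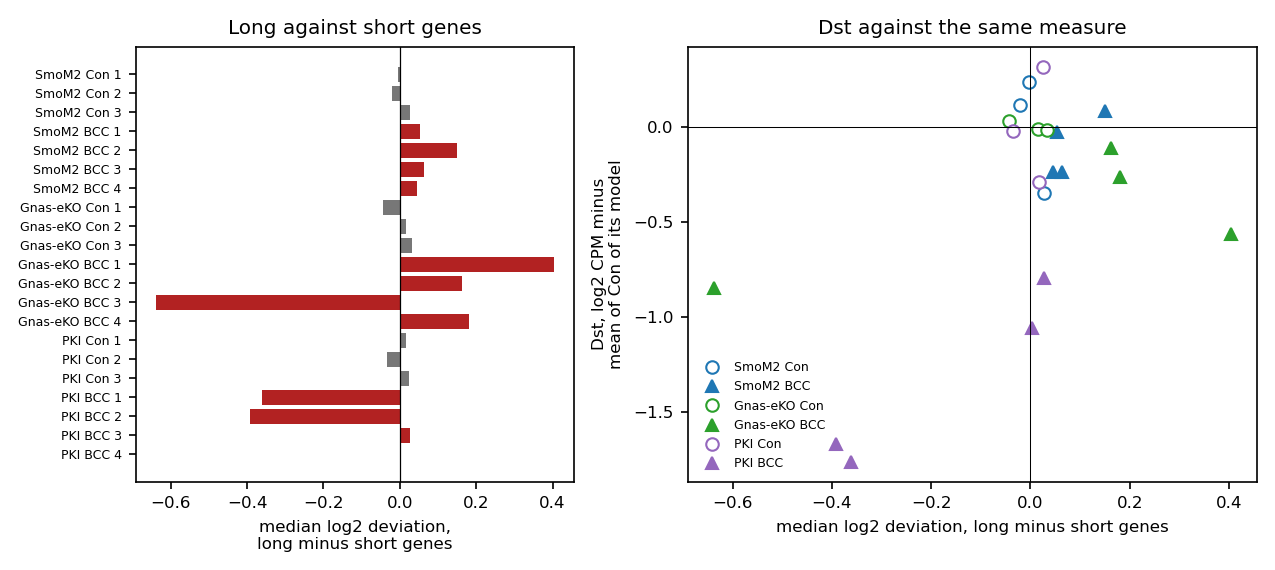
Left, median log2 deviation from Con of genes longer than 8000 bases minus that of genes shorter than 1500 bases (horizontal axis) in each library, Con in grey and BCC in red. Lengths are those of the union of annotated exons. Right, log2 CPM of Dst minus the Con mean of its model (vertical axis) against the same measure, one point a library: PKI BCC 1 and 2 are low on both axes, and PKI BCC 3 and 4 are low for Dst with a length measure near 0.

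Since these products work as pairs, the log2 ratio of partner mRNAs was compared in each model with an exact permutation test (two-sided, all 35 ways to split the 7 libraries, smallest possible p 0.0286), adjusted over 12 ratio and model pairs. Itga6 over Itgb4 differed by -0.30 in SmoM2, from 0.08 ± 0.09 (SD, n = 3) in Con to -0.22 ± 0.12 (n = 4) in BCC. In PKI the mean went the other way, from 0.05 ± 0.07 to 0.54 ± 0.08, a difference of 0.48. BCC and Con libraries did not overlap in either model (exact permutation p = 0.0286, adjusted 0.0571 in both). In Gnas-eKO the ratio differed by -0.01, with overlap. The difference between SmoM2 and PKI in this ratio was not tested.

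Itga3 over Itgb1 differed by -0.73 in Gnas-eKO and by -0.45 in PKI, without overlap in either (exact permutation p = 0.0286, adjusted 0.0571), and by -0.20 in SmoM2 with overlap. Lama3 over Lamb3 differed by -0.43 in SmoM2, from -0.48 ± 0.04 in Con to -0.91 ± 0.11 in BCC, without overlap. In Gnas-eKO that ratio differed by -0.24 and overlapped (-0.41 to -0.13 with 1 library left out). In PKI, where both mRNAs had lower means, it differed by 0.08 with overlap. Lama5 over Lamb1 was lower in all PKI BCC libraries than in Con (difference -0.76). In Gnas-eKO it was higher in all BCC libraries, by 0.59 (exact permutation p = 0.0571, adjusted 0.0980), and by 0.37 to 0.74 with 1 library left out. In SmoM2 it differed by 0.26 with overlap, and by 0.067 to 0.44 with 1 library left out. With 1 library left out, Itga6 over Itgb4 in Gnas-eKO ran from -0.11 to 0.071 and Lama3 over Lamb3 in PKI from -0.021 to 0.18, so neither kept its sign. No ratio passed an adjusted p of 0.05. With a smallest possible p of 0.0286 and an adjustment over 12 pairs, no ratio could pass unless many others also reached that p. The failure to pass therefore does not show that a ratio was unchanged.

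**Figure D4:**
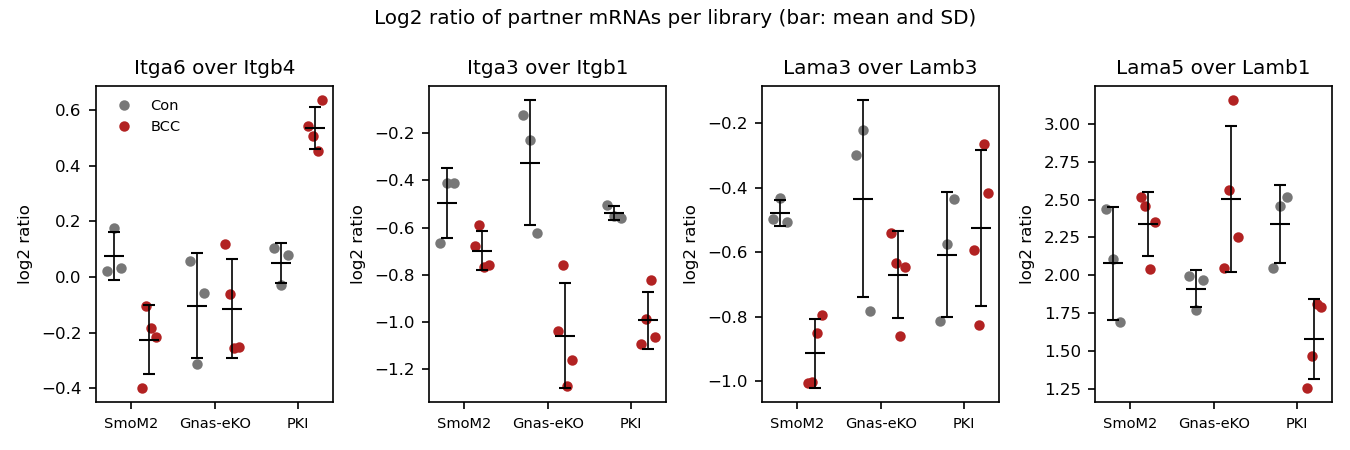
Log2 ratio of the mRNA levels of partner genes (vertical axis of each panel) in every library, Con in grey and BCC in red; horizontal bars are means and whiskers are SD. For Itga6 over Itgb4 the BCC libraries lie below Con in SmoM2 and above Con in PKI.

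Among 5 further hemidesmosome genes (Col17a1, Plec, Cd151, Krt5 and Krt14), 1 rose and 4 fell in SmoM2 and 3 fell in PKI. In Gnas-eKO 0 were called by edgeR, with 2 at an unadjusted p under 0.05, 1 called by DESeq2 and 0 by limma. Col17a1, the transmembrane collagen of the hemidesmosome, was at 3883, 4108 and 4474 CPM in PKI Con and at 1620.0, 1784, 2285 and 1863 CPM in PKI BCC. It was low in all 4 PKI BCC libraries, with a log2 change of -1.13 ± 0.12 (edgeR adjusted p = 0.000269), against -0.46 ± 0.08 in SmoM2 (0.00301), and the difference of -0.67 between the models passed (0.00525). Plec, which encodes plectin, fell in both, with a log2 change of -0.45 ± 0.09 for SmoM2 and -0.63 ± 0.18 for PKI. Krt14, a keratin of the filaments that hemidesmosomes hold, fell in SmoM2 with a log2 change of -1.20 (edgeR adjusted p = 3.65e-05) and stood at -0.0029 in PKI, a difference that passed (0.000118). Krt5, its partner keratin, fell in both, with log2 fold changes of -0.31 and -0.24. Cd151, a tetraspanin that binds laminin-receptor integrins, rose in SmoM2 by 0.20 (edgeR adjusted p = 0.0363) and stood at 0.19 in PKI (0.133). In Gnas-eKO, where none passed, the log2 fold changes were -1.19 ± 0.37 for Krt14 (edgeR adjusted p = 0.132), -0.65 ± 0.29 for Col17a1 (0.252), -0.67 ± 0.30 for Krt5 (0.268), -0.20 ± 0.18 for Plec and 0.18 ± 0.13 for Cd151. Col17a1 was there at 3561 to 3632 CPM in Con and at 1391 to 3358 CPM in BCC, without overlap.

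Of 6 other laminin chains, 5 could be tested in SmoM2 and 3 rose, Lamb2 (log2 fold change 0.85), Lamc1 (0.58) and Lamc3 (1.54). Lamb2 and Lamc1, which join Lama5 in trimers, are named here after their values were seen. In Gnas-eKO 1 of 5 rose, Lamc3 (2.87, edgeR adjusted p = 0.0484), which stayed at 3.48 CPM or less in every library. There DESeq2 called 2 of these chains and limma 0. In PKI 0 of 4 were called by edgeR, with 1 at an unadjusted p under 0.05, 1 called by DESeq2 and 0 by limma. Lamb2 differed between PKI and SmoM2 by -0.93 (edgeR adjusted p = 0.000348) and between PKI and Gnas-eKO by -0.71 (0.0267).

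Among 19 tested of 20 other basement membrane genes, 9 rose and 5 fell in SmoM2, 5 rose and 0 fell in Gnas-eKO, and 4 rose and 7 fell in PKI. Their median log2 fold change was 0.53, 0.56 and -0.13 in that order. Col4a1 and Col4a2, the chains of the general type IV collagen network, rose in all 3 models. Col4a1 went from 14.7 to 33.0 CPM in SmoM2 Con to 242 to 284 CPM in BCC, and in PKI from 12.1 to 31.7 CPM to 83.5 to 142 CPM. In log2 terms Col4a1 rose by 3.63, 4.03 and 2.59 for SmoM2, Gnas-eKO and PKI, and Col4a2 by 3.43, 3.46 and 2.12. The other type IV chains of the list, named here after their values were seen, went the other way in PKI. Col4a3 (-1.30), Col4a4 (-1.10), Col4a5 (-1.20) and Col4a6 (-1.49) fell there. In SmoM2, Col4a3 (-0.58), Col4a4 (-0.47) and Col4a6 (-0.46) fell. None of these chains was called in Gnas-eKO by edgeR. Fras1, which encodes a basement membrane protein, fell in SmoM2 (-2.48) and PKI (-2.55). Agrn, which encodes the laminin-binding proteoglycan agrin, changed in opposite directions. It rose in SmoM2, from 245 to 269 CPM in Con to 349 to 392 CPM in BCC (0.50 ± 0.07, edgeR adjusted p = 0.000589), and in Gnas-eKO (0.87 ± 0.16, 0.0389). In PKI it fell, from 307 to 342 CPM to 213 to 283 CPM (-0.38 ± 0.11, edgeR adjusted p = 0.0271), and its effect there was lower than in SmoM2 (difference -0.88, 0.000509).

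Of 12 other integrin subunits, 3 rose and 1 fell in SmoM2, 1 rose in Gnas-eKO, and 3 rose and 2 fell in PKI. Itga1, a collagen receptor subunit, rose in all 3 models, from 0.735 to 2.11 CPM to 33.1 to 50.6 CPM in SmoM2, to 10.6 to 25.2 CPM in Gnas-eKO BCC and to 3.72 to 8.12 CPM in PKI BCC. Itgb6, part of an epithelial fibronectin receptor, rose in SmoM2 (log2 fold change 1.12) and PKI (1.35), and Itga4 fell in both (-0.81 and -2.32). Of 13 adhesion adaptors and other laminin receptors, 4 rose and 1 fell in SmoM2, 3 rose and 3 fell in PKI, and 0 were called in Gnas-eKO by edgeR (2 at an unadjusted p under 0.05, 1 by DESeq2, 0 by limma). Bcam, a receptor for Lama5-containing laminins, rose in SmoM2 from 209.6 to 244 CPM to 509 to 624 CPM (1.33 ± 0.10, edgeR adjusted p = 1.07e-05) and less in PKI (0.47 ± 0.08, 0.0025), a difference of -0.86 that passed (0.000333). Tln2, a talin, fell in both (-0.61 and -0.37).

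As a description, the genes most like 4 of the 9 were those with the highest Pearson correlation of log2 CPM over the 21 libraries after the mean of each model was subtracted. The points share libraries, scaling and the length pattern above. Itgb4 was most like Col17a1 (r = 0.971), then Plxdc1 (0.953) and Papln (0.950). Dst was most like Papln (r = 0.954), Pik3c2g (0.939) and Srr (0.936). Itga6 was most like Gm29397 (r = 0.940), Ptk2b (0.939) and Rps6ka3 (0.932), and Lamb3 was most like Oaz2 (r = 0.930), Spock2 (0.924) and Fkbp5 (0.905).

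Markers of other cells moved with the tumour groups. In PKI, 6 of 6 leukocyte markers rose, and their summed level went from 8.05 to 18.2 CPM in Con to 40.3 to 87.5 CPM in BCC, while it overlapped between the groups in SmoM2 and Gnas-eKO. Also in PKI, 3 of 4 melanocyte markers fell (summed level 140.2 to 187 CPM in Con, 68.9 to 109 CPM in BCC). The summed level of 6 fibroblast markers was 43.5 CPM or less in every Con library and 387 to 525 CPM in SmoM2 BCC, 94.3 to 579 CPM in Gnas-eKO BCC and 84.4 to 145 CPM in PKI BCC. Most of it was Dcn, at up to 569 CPM, while Pdgfra stayed at 1.20 CPM or less and Lum at 7.76 CPM or less, with 0 in at least 1 library. The endothelial sum stayed at 4.99 CPM or less with Cdh5, Kdr, Cldn5 and Tie1 down to 0, and the muscle sum at 1.15 CPM or less. The sum of 5 basal keratinocyte markers, which include Krt5, Krt14 and Col17a1, was 30096 to 38888 CPM in SmoM2 Con and 22495 to 24350.0 CPM in SmoM2 BCC, 35464 to 38740 CPM in Gnas-eKO Con and 16076 to 32626 CPM in Gnas-eKO BCC, and 33724 to 38501 CPM in PKI Con and 28548 to 31227 CPM in PKI BCC. The sum was lower in BCC without overlap in all 3 models. Of these markers Krt5, Krt14 and Col17a1 fell in SmoM2 and Krt5, Krt15 and Col17a1 in PKI, while Trp63, a transcription factor of basal keratinocytes, rose in SmoM2 (0.48, edgeR adjusted p = 0.00356). Of 5 suprabasal keratinocyte markers, Krt10 (-0.81) and Ivl (-1.06) fell in SmoM2, and in PKI Lor fell (-2.35) and Krt1 rose (1.80), as log2 fold changes called by edgeR. Their summed level ran from 16508 to 34780 CPM in Con and from 11760.0 to 42761 CPM in BCC over the models, with overlap in each. The sum of 3 Schwann cell markers was 8.10 CPM or less in every library, lower in PKI BCC (2.99 to 3.87 CPM) than in PKI Con (4.23 to 7.25 CPM) and higher in Gnas-eKO BCC (5.61 to 8.10 CPM) than in its Con (4.58 to 5.06 CPM), both without overlap. The part of these shifts in the changes of the 9 genes was not tested.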

How the data were processed

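The deposited table of estimated counts per gene (21 libraries, 23713 genes, 32.44% of values not whole) and the authors' deposited table of normalized signal, called TMM-normalized in its name and used for alternatives, were analysed. Per the submitters' processing notes, bcl2fastq 2.20, cutadapt 1.18, STAR 2.7.0f and Partek were used with build mm10; their roles, the annotation and the strand setting of the counting are not given in the sources used here. Per the labels' protocols, libraries came from a stranded polyA preparation.

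The estimates were rounded first, and edgeR 4.0.16 (R 4.3.3) gave the main tests (filterByExpr by group, TMM, robust quasi-likelihood test, Benjamini-Hochberg adjustment over all genes tested), BCC against Con in the 7 libraries of a model and interaction contrasts in 14. The SE is the absolute log2 fold change over the square root of F. DESeq2 1.42.0 and limma 3.58.1 (on log2 of the authors' normalized signal plus 0.5) were alternatives. A prior count of 2 was used for log2 CPM in ratios and likeness. Exact permutation tests used SciPy 1.17.1. The edgeR step was tested on simulated counts. Gene positions and lengths came from a GENCODE annotation of GRCm38, where 23048 of the genes matched by name, and promoters from RefSeq, where 6 of the 9 genes matched. Libraries of the same group all differed by more than counting noise (lowest chi-square over its degrees of freedom 8.33), and all were kept.

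The 9 genes and all lists were chosen with earlier results of these data known. All 9 genes and 5 hemidesmosome partners are named in every model; 1 further partner is not reported here. In the lists of other laminin chains, basement membrane genes, integrin subunits and adhesion adaptors, any gene called in opposite directions is named. Up to 3 genes a list, called in the same direction in at least 2 models with the largest smallest change, are named too. Cell type markers, and genes said to be named after their values were seen, fall outside this rule. The 3 genes most like each of 4 members are named by correlation.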

Additional observations from a re-analysis of the deposited data

Results flagged for a closer look

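Lama5 in SmoM2 BCC had a lowest library of 280.1 CPM set apart from the other 3, and Itga3 in PKI BCC a highest library of 173 CPM. Both passed Dixon's test for 4 samples, as 2 of 39 groups did, where chance gives about 1 in 20.

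The BCC effects of PKI and SmoM2 differed by the interaction test for Lama5 (-1.22), Dst (-1.17), Lamb3 (-1.15) and Itgb4 (-0.43), and those of PKI and Gnas-eKO for Lama5 (-1.34), in log2 units, PKI being the lower in each. In the log2 ratio of Itga6 over Itgb4 every SmoM2 BCC library lay below and every PKI BCC library above all Con libraries of its model, which puts the PKI effect 0.78 above the SmoM2 effect. In the log2 ratio of Lama5 over Lamb1 every Gnas-eKO BCC library lay above and every PKI BCC library below Con, a PKI effect lower by -1.35. Neither difference between models in a ratio was tested.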

How the results depend on the processing

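The depth of 16645858 to 22251132 counts a library gave every one of the 9 genes 30.2 CPM or more in each library, so the number of libraries and their spread, more than counting, limit precision. The models differ in batch and day, the strand setting is unknown, and transcript forms are not separated. Apart from leaving out single libraries, 369 of 405 log2 fold changes under the alternatives (DESeq2's size factors or test, no filter, the block, the joint fit, the authors' normalized values with limma, the length offset, and PKI without BCC 1 and 2) kept their direction and their side of the threshold. The cause of the changes that follow was not tested.

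The number of the 9 genes called in SmoM2 went from 5 to 3 in the joint fit, where the share of all genes called went from 29.7% to 22.7%. In Gnas-eKO it went from 0 to 1 in the DESeq2 test and to 2 in the joint fit, and that share from 1.63% to 9.35% and 14.9%. Between PKI and Gnas-eKO it went from 1 to 2 in both of these, and to 0 without PKI BCC 1 and 2, with shares of 13.8%, 13.1% and 2.78% in place of 9.06%. With each library left out in turn, the number was 4 to 6 for SmoM2, where 21.5% to 27.5% of all genes were called. It was 0 to 1 for Gnas-eKO (1 without BCC 2, where 11.8% of all genes were called). For PKI it was 3 to 5, where 24.1% to 33.7% of all genes were called. The 3 came without Con 2 (24.1%) or without Con 3 (25%). For the differences the number was 0 to 0 between Gnas-eKO and SmoM2, with 0.0795% to 0.462% of all genes called. Between PKI and SmoM2 it was 2 to 5, with 19.2% to 25.8% of all genes (2 without PKI Con 3, at 19.2%). Between PKI and Gnas-eKO it was 1 to 2, with 3.79% to 14.7% of all genes. The 2 came without Gnas-eKO Con 3 (6.69%) or BCC 3 (14.7%).

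The labels do not say that a replicate number pairs libraries. The deviations of same-numbered libraries had correlations of -0.11 to -0.076 (SmoM2), 0.021 to 0.15 (Gnas-eKO) and -0.054 to 0.24 (PKI); not every pair exceeded 0.1 in any model, so the numbers were not taken as a pairing. As a hint from the data, 0 (SmoM2), 3 (Gnas-eKO) and 3 (PKI) of 6 numbered libraries correlated best with their own number. The replicate block took the calls over all genes from 4860 to 3428 (SmoM2), 267 to 135 (Gnas-eKO) and 5653 to 5988 (PKI). With it, 4 genes were called for SmoM2, 0 for Gnas-eKO and 6 for PKI, 3 between PKI and SmoM2 (22.9% of all genes), 1 between PKI and Gnas-eKO (5.36%) and 0 between Gnas-eKO and SmoM2 (0.122%).

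The sign changed only for log2 fold changes that were not called. With the replicate block, these were Itgb1 in Gnas-eKO (-0.021), Lama3 in Gnas-eKO (-0.19), Itgb1 and Lama5 for Gnas-eKO minus SmoM2 (-0.029 and -0.050) and Lamb1 for PKI minus Gnas-eKO (0.23). With limma on the authors' values they were Lama3 in Gnas-eKO (-0.066), Itgb1 for Gnas-eKO minus SmoM2 (-0.0044) and Lamb1 for PKI minus Gnas-eKO (0.021). Lama3 in Gnas-eKO was -0.0017 without the filter, -0.0027 in the joint fit and -0.037 with the length offset, where Lamb1 for PKI minus Gnas-eKO was 0.011.

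With 1 library left out in turn, the sign also changed, within these ranges. Itgb1 ran from -0.11 to 0.16 in SmoM2, from -0.039 to 0.23 in Gnas-eKO and from -0.21 to 0.030 in PKI, Lama3 from -0.041 to 0.18 in SmoM2 and -0.13 to 0.21 in Gnas-eKO, and Dst from -0.26 to 0.013 in SmoM2. For Gnas-eKO minus SmoM2, Itgb1 ran from -0.095 to 0.21, Itgb4 from -0.22 to 0.025, Lama3 from -0.22 to 0.11, Lama5 from -0.052 to 0.24 and Lamb1 from -0.34 to 0.10. For PKI minus Gnas-eKO, Itga3 ran from -0.062 to 0.25, Itga6 from -0.0022 to 0.29 and Lamb1 from -0.34 to 0.11, and for PKI minus SmoM2 Itgb1 ran from -0.23 to 0.048. Without a change of sign, further uncalled Gnas-eKO changes moved by over 1.5 times. They were those of Lamb3 (0.060 to 0.40), Lamb1 (0.19 to 0.64), Itga6 (-0.51 to -0.22) and Itgb4 (-0.49 to -0.25).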
